A study of Mus musculus with 6 samples.

Results

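Lysine tRNAs carry lysine to the ribosome, and in mouse cells they are read with the anticodon CTT or TTT. Enzymes cut tRNAs into small RNAs, which are grouped as tRNA fragments (tRF) and as tRNA-derived stress-induced RNAs (tiRNA, cut in the anticodon loop by ribonucleases such as angiogenin, a protein first known as an inducer of blood vessel growth). The fragments described here are all rows of the deposited tables whose name starts with tRF-Lys-, and the anticodon was read from the name. They were 29 of the 498 tRNA-derived small RNAs (tsRNAs) and of the 2334 small RNAs listed, 13 with the anticodon CTT and 16 with TTT.

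Small RNAs of 14 to 40 nt were sequenced from the retinal pigment epithelium (RPE), collected with the choroid and the sclera, of male mice 7 to 8 weeks old, whose strain the labels leave unstated. In the CNV (choroidal neovascularization) group each eye had 25 laser spots around the optic disc (532 nm, 100 mW, 0.1 s, 50 µm), an injury after which choroidal vessels grow, and was taken 7 days later. The Control group was eyes of mice of the same age that had no laser. Each group had 3 libraries, each made from a pool of 4 eyes, and nothing in the labels says whether different pools held eyes of different mice, so the p-values rest on pool-to-pool spread, which may in part be technical.

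The libraries held 5057142 to 12839386 counts, with the most in Control 2. All 29 lysine fragments were counted in every library, with 4055 to 4763 counts per CNV library and 2780 to 11186 per Control library. The tissue label was checked against miRNA markers. All 4 RPE markers (both arms of miR-204 and miR-211) were counted in every library, with a summed level of 4701 to 5780 CPM, the counts scaled to the library's total of all listed small RNA counts, in CNV and 6624 to 7812 CPM in Control. Markers of neighbouring cells were also counted in every library. The 3 photoreceptor markers summed to 23354 to 50863 CPM in CNV and 53463 to 84061 CPM in Control (an overlap once TMM factors were used), the 3 neuron markers to 7381 to 12834 CPM in CNV and 15007 to 23317 CPM in Control, and the 3 leukocyte markers to 487 to 661 CPM in CNV and 272 to 389 CPM in Control. Skeletal muscle markers were more abundant than those of RPE, with 59050 to 79994 CPM in CNV and 38053 to 88235 CPM in Control. Control 1 was the lowest library of all for muscle. It was the highest for the RPE, photoreceptor and neuron sums and for the CTT fragment sum. Within CNV the muscle sums and the CTT sums ran in the same order, but within Control they ran in reverse order. The RPE and erythrocyte sums followed the order of the CTT sums in both groups. Erythrocyte markers summed to 981 to 3678 CPM in CNV and 1269 to 2298 CPM in Control, and endothelium markers to 31303 to 44086 CPM in CNV and 39099 to 45337 CPM in Control. These last 3 lists overlapped between the groups, and no marker of any list was at 0. In bulk tissue, fewer cells of a type and less RNA per cell cannot be told apart, and the part of these cell types in the lysine fragments was not tested.

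The sequences behind the serial numbers of the fragments were not used here. A name with TTT also does not say whether the parent is a nuclear tRNA or the mitochondrial lysine tRNA, which has the same anticodon. The mitochondrial tRNA is shown for that reason, from GENCODE M21 on build GRCm38 (gene mt-Tk, chromosome MT, 7700 to 7764, plus strand, 65 bases), with the anticodon, bases 27 to 29, in capitals.
mt-Tk: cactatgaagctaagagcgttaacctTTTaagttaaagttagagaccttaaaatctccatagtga
Serial numbers of a shared anticodon can stand for overlapping pieces of the same tRNA, so the fragments were not counted as independent of each other.

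The comparison of CNV with Control found no lysine fragment past the threshold. Of the 29 fragments 26 passed the filter on low counts and were tested, and none had an adjusted p under 0.05 (edgeR quasi-likelihood fit, Benjamini-Hochberg over the 997 small RNAs tested). That fit called 3 small RNAs (0.301%), none of them among the 456 tsRNAs tested (0%). The smallest adjusted p of a lysine fragment was 0.127. At an unadjusted p under 0.05 there were 6 lower lysine fragments (23.1% of 26, against 4.39% of tsRNAs and 6.92% of all small RNAs) and 1 higher (3.85%, against 13.6% and 10.8%). DESeq2 called 2 lower, tRF-Lys-TTT-018 and tRF-Lys-CTT-011, among 16 tsRNAs (3.51%, with 5 or 1.1% lower) and 38 small RNAs (3.81%). The same pair was called by edgeR with no filter on low counts, where 88 of 2334 small RNAs (3.77%) passed. With the replicate number as a block, edgeR called TTT-018 only, among 36 small RNAs (3.61%). Limma-voom called 3 small RNAs (0.301%), none of them a lysine fragment. At an unadjusted p under 0.05 it had 5 lower (19.2%, against 4.61% of tsRNAs) and 0 higher (against 13.6%).

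Every CNV pool was below every Control pool for 9 of the 29 lysine fragments in CPM (31.0%, against 8.63% of all 498 tsRNAs), and for 7 (24.1%, against 6.22%) when trimmed mean of M-values (TMM) factors were used for scaling. The 7 were CTT-006, CTT-007, CTT-011, TTT-014, TTT-017, TTT-018 and TTT-021, and CTT-004 and TTT-030 were added in CPM. No lysine fragment had every CNV pool above every Control pool under either scaling, against 5.82% and 9.04% of the tsRNAs. The scaling matters for such counts because the median log2 fold change of all tested small RNAs was 0.05 with TMM factors and -0.11 with total counts alone. Fitted without a filter on low counts, 20 of the 29 lysine fragments had a negative log2 fold change and 9 a positive one, against 257 and 241 of the 498 tsRNAs. Among the tested, the median log2 fold change was -0.23 for the 26 lysine fragments and 0.08 for all 456 tsRNAs. When tRF were grouped by amino acid (20 groups, each with 5 or more tested), lysine had the second lowest median, after cysteine (-0.30). These medians and counts describe the list and were not tested as such.

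**Figure D1:**
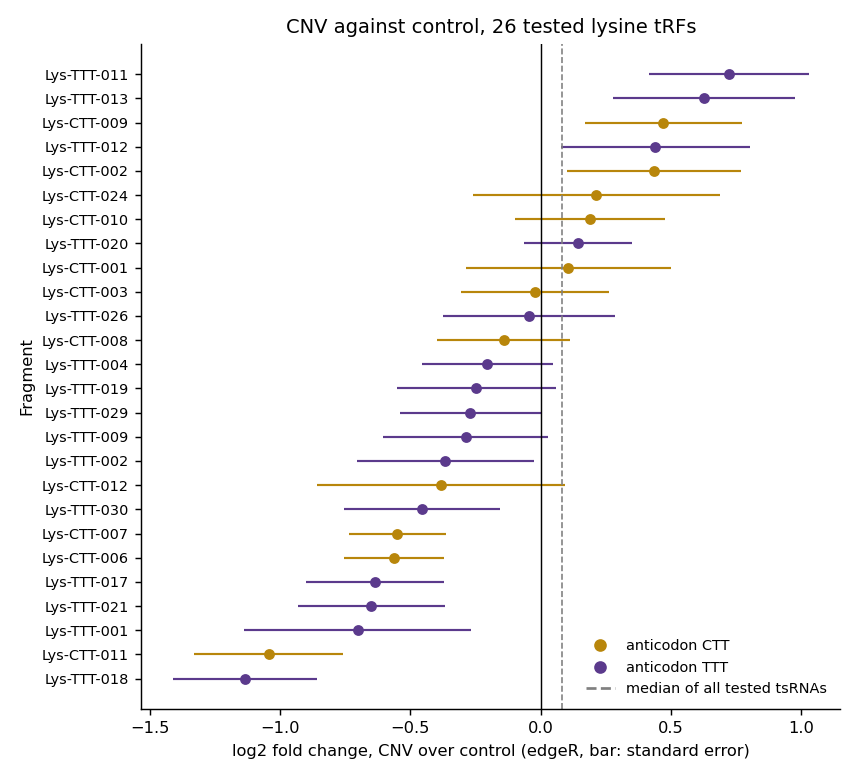
Log2 fold change of CNV over Control for the 26 tested lysine fragments (x axis, TMM-scaled edgeR fit, bars are standard errors; y axis, fragment), coloured by anticodon, with the median of all tested tsRNAs (0.08) dashed. The 2 lowest are TTT-018 at -1.13 and CTT-011 at -1.04, and the highest is TTT-011 at 0.72; none passed the adjusted threshold.

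The CTT fragments were dominated by serial numbers 009 and 010. With a mean of 284 CPM over the 6 libraries, tRF-Lys-CTT-010 was the most abundant lysine fragment and ranked 22nd of the 498 tsRNAs. It had 289.8, 302 and 265 CPM in CNV 1 to 3, against 431, 259 and 160.2 CPM in Control 1 to 3. The CNV pools lay inside the range of the Control pools, which spread widely, and the log2 fold change was 0.19 (SE 0.29, adjusted p = 0.790 in the edgeR fit), -0.10 without Control 3 and 0.59 without Control 1. The next, tRF-Lys-CTT-009, had 241, 176 and 175 CPM in the CNV pools and 234, 161 and 90.6 CPM in the Control pools. The groups overlapped, with the lowest value in Control 3 (log2 fold change 0.47, SE 0.30, adjusted p = 0.484). Single libraries moved this value, to 0.17 without Control 3, 0.23 without CNV 1 and 0.80 without Control 1 (adjusted p = 0.174 for the last). Next in abundance, tRF-Lys-CTT-008 had 79.2, 63.0 and 70.9 CPM in the CNV pools and 121, 90.3 and 53.8 CPM in the Control pools. It overlapped as well (log2 fold change -0.14, SE 0.26, adjusted p = 0.846, and 0.12 without Control 1).

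Below these in abundance, tRF-Lys-CTT-007 and tRF-Lys-CTT-006 differed in another way. In CNV 1 to 3 tRF-Lys-CTT-007 had 47.4, 45.1 and 42.6 CPM, against 86.5, 78.1 and 56.9 CPM in Control 1 to 3. For tRF-Lys-CTT-006 the values were 29.2, 30.1 and 32.9 CPM in the CNV pools and 54.7, 59.7 and 37.2 CPM in the Control pools. Every CNV pool lay below every Control pool for both, and Control 3 was the nearest to CNV. The fold changes were 0.683 for CTT-007 (log2 -0.55, SE 0.19, adjusted p = 0.202 in the edgeR fit) and 0.677 for CTT-006 (log2 -0.56, SE 0.19, adjusted p = 0.202), so neither passed.

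The lowest ratio among CTT fragments was that of tRF-Lys-CTT-011, at 7.56, 7.70 and 10.6 CPM in the CNV pools and 23.3, 24.6 and 11.3 CPM in the Control pools. The groups did not overlap, but CNV 3 and Control 3 were close. These levels rest on 41 to 60 counts per CNV library and 57 to 316 per Control library. The fold change was 0.485 (log2 -1.04, SE 0.29, adjusted p = 0.142 in the edgeR fit and 0.0298 in DESeq2). No such separation was seen for tRF-Lys-CTT-003, with 10.3, 12.4 and 23.7 CPM in the CNV pools and 18.4, 19.2 and 13.8 CPM in the Control pools. Its CNV values ran both below and above the Control values (log2 fold change -0.02, SE 0.28, adjusted p = 0.978, and positive without CNV 1, CNV 2 or Control 1).

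The other 4 tested CTT fragments (001, 002, 012 and 024) ranged from 1.13 to 16.9 CPM, with log2 fold changes of -0.38 to 0.44, 1 negative and 3 positive. None of these had an adjusted p under 0.574. The remaining CTT fragments, 004 and 023, did not pass the filter on low counts. They had 6, 8 and 8 counts (004) and 10, 1 and 8 counts (023) in the CNV pools, against 8, 31 and 8 counts (004) and 14, 24 and 6 counts (023) in the Control pools. Control 2 had the most counts of both and was also the deepest library; in CPM the groups overlapped for 023, while for 004 every CNV pool was below every Control pool, which TMM factors turned into an overlap.

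**Figure D2:**
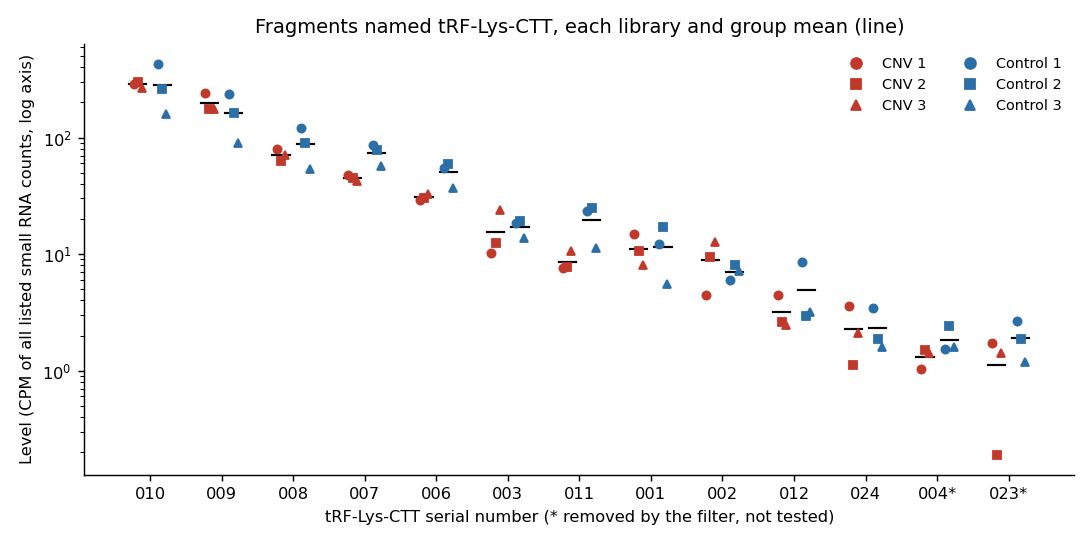
Level of each of the 13 tRF-Lys-CTT fragments (x axis, serial number, by mean level) in CPM on a log axis, with CNV pools left in red, Control pools right in blue and lines at group means. CTT-010 and CTT-009 stand above the rest with overlapping groups, while for CTT-007, CTT-006, CTT-011 and CTT-004 every CNV pool lies below every Control pool.

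Counts within a library do not depend on scaling between libraries, so pairs of CTT fragments were also set against each other. These pairs were chosen after the values were seen and are given with no test. Counts of CTT-009 were 5.08, 3.90 and 4.10 times those of CTT-007 in CNV 1 to 3, against 2.71, 2.06 and 1.59 times in Control 1 to 3. For CTT-010 over CTT-007 the ratios were 6.11, 6.70 and 6.21 in the CNV pools and 4.98, 3.31 and 2.81 in the Control pools. In both pairs all CNV ratios lay above all Control ratios, which was not so for CTT-007 over CTT-006, with 1.62, 1.50 and 1.30 in the CNV pools and 1.58, 1.31 and 1.53 in the Control pools. Together CTT-009 and CTT-010 made up 72.3%, 72.3% and 67.8% of the CTT counts in the CNV pools and 66.3%, 57.9% and 56.5% in the Control pools. The share of CTT-010 alone overlapped between the groups, at 39.5%, 45.6% and 40.8% in the CNV pools and 42.9%, 35.7% and 36.1% in the Control pools, and so did the ratio of CTT-009 over CTT-010, at 0.831, 0.583 and 0.660 in the CNV pools and 0.543, 0.623 and 0.565 in the Control pools. The widest 95% Wilson interval of the joint shares was 54.4% to 58.5%, in Control 3; such intervals cover counting error only. The CTT fragments other than 009 and 010 summed to 204, 184 and 209 CPM in CNV 1 to 3 and to 339, 306 and 193 CPM in Control 1 to 3, so that sum overlapped, with Control 3 inside the CNV range.

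**Figure D3:**
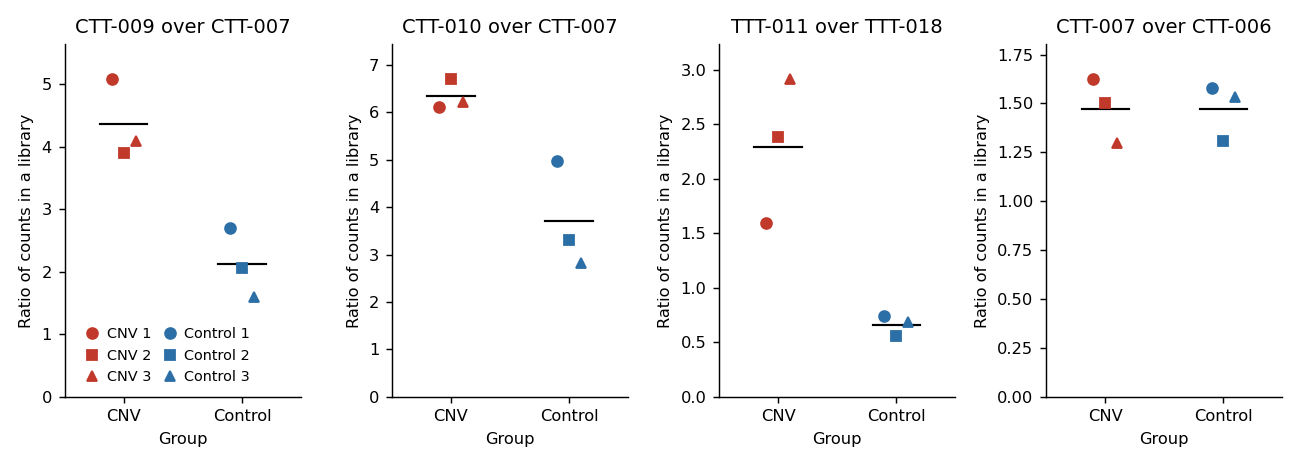
Ratio of the counts of a pair of lysine fragments within each library (y axis, starting at 0), for CNV pools left in red and Control pools right in blue, with lines at group means. The ratios CTT-009 over CTT-007, CTT-010 over CTT-007 and TTT-011 over TTT-018 are higher in every CNV pool than in any Control pool, and CTT-007 over CTT-006 overlaps.

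The TTT fragments were rarer and more even. None exceeded the mean of 16.9 CPM of tRF-Lys-TTT-021, against 284 CPM for CTT-010. The smallest p of all lysine fragments was that of tRF-Lys-TTT-018, which had 4.64, 6.95 and 6.01 CPM in CNV 1 to 3 and 11.1, 18.7 and 12.5 CPM in Control 1 to 3. Each CNV pool was under each Control pool, on the basis of 27, 37 and 34 counts in the CNV pools and 58, 240 and 63 in the Control pools. The fold change was 0.455 (log2 -1.13, SE 0.28, unadjusted p = 0.00281, adjusted p = 0.127 in the edgeR fit and 0.0176 in DESeq2). Over the 13 alternative settings the adjusted p of TTT-018 ran from 0.00398 with no filter on low counts to 0.507 without CNV 2, and its log2 fold change from -1.32 to -0.98.

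A similar pattern was found for tRF-Lys-TTT-017, at 5.15, 3.76 and 5.30 CPM in the CNV pools and 6.89, 10.2 and 7.12 CPM in the Control pools. It was also found for tRF-Lys-TTT-021, at 13.6, 12.0 and 11.0 CPM in the CNV pools and 31.4, 17.9 and 15.6 CPM in the Control pools. The groups did not overlap for either, and Control 1 was far above the others for TTT-021. Log2 fold changes were -0.64 for TTT-017 (SE 0.27, adjusted p = 0.267 in the edgeR fit) and -0.65 for TTT-021 (SE 0.28, adjusted p = 0.277). Without Control 1 the log2 fold change of TTT-021 was -0.33.

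In the other direction stood tRF-Lys-TTT-011, with 7.39, 16.5 and 17.5 CPM in the CNV pools and 8.23, 10.4 and 8.50 CPM in the Control pools. In CPM, CNV 2 and CNV 3 lay above every Control pool and CNV 1 below every one. The groups overlapped both in CPM and with TMM factors (log2 fold change 0.72, SE 0.31, unadjusted p = 0.0429, adjusted p = 0.269 in the edgeR fit). Values of tRF-Lys-TTT-012 were 8.08, 13.3 and 22.3 CPM in the CNV pools and 7.65, 14.9 and 11.9 CPM in the Control pools. Here too CNV 3 was highest and CNV 1 near the lowest (log2 fold change 0.44, SE 0.36, adjusted p = 0.610, and 0.0037 without CNV 3). Set against TTT-018 in the same library, a pair chosen after its values were seen, TTT-011 had 1.59, 2.38 and 2.91 times its counts in the CNV pools and 0.741, 0.558 and 0.683 times in the Control pools, with no overlap. The share of TTT-018 in all TTT counts was 5.53%, 6.93% and 4.98% in the CNV pools and 8.55%, 12.9% and 11.8% in the Control pools, where the 95% Wilson intervals ran from 3.58% to 9.40% over the CNV pools and from 6.68% to 14.8% over the Control pools. That of TTT-011 was 8.81%, 16.5% and 14.5% in the CNV pools and 6.34%, 7.19% and 8.04% in the Control pools, without overlap. The shares of TTT-012 and TTT-021 overlapped between the groups, for TTT-021 at 16.2%, 12.0% and 9.08% in the CNV pools and 24.2%, 12.3% and 14.8% in the Control pools.

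The abundant fragments tRF-Lys-TTT-029 and tRF-Lys-TTT-020 overlapped between groups. The level of TTT-029 was 11.7, 11.5 and 15.6 CPM in the CNV pools and 20.5, 21.2 and 10.1 CPM in the Control pools (log2 fold change -0.27, SE 0.27, adjusted p = 0.672 in the edgeR fit). That of TTT-020 was 9.28, 9.40 and 12.4 CPM in the CNV pools and 11.5, 10.9 and 8.70 CPM in the Control pools (log2 0.14 with TMM factors and -0.0056 scaled by totals alone, adjusted p = 0.786). Control 3 was the lowest library for both. The other 8 tested TTT fragments ranged from 0.687 to 12.8 CPM with log2 fold changes of -0.70 to 0.63, 7 negative and 1 positive, and no adjusted p under 0.404. The untested TTT-014 had 5, 8 and 9 counts in the CNV pools and 22, 23 and 9 counts in the Control pools. In CPM that was 0.859, 1.50 and 1.59 in the CNV pools and 4.21, 1.79 and 1.78 in the Control pools, so the groups did not overlap, though the nearest values differed little. Of the other TTT fragments, TTT-030 was chosen after its values were seen. It had 2.41, 1.69 and 2.12 CPM in the CNV pools and 3.83, 2.88 and 2.97 CPM in the Control pools. The groups did not overlap in CPM but did under TMM factors. The 1 positive of the 8, TTT-013, overlapped under both scalings (log2 fold change 0.63, adjusted p = 0.404 in the edgeR fit).

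**Figure D4:**
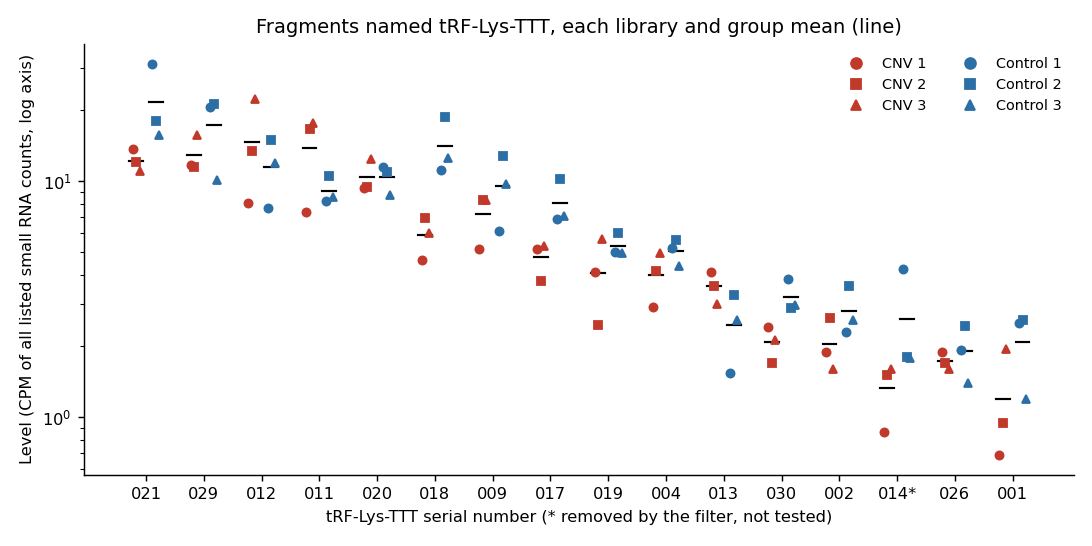
Level of each of the 16 tRF-Lys-TTT fragments (x axis, serial number, by mean level) in CPM on a log axis, with CNV pools left in red, Control pools right in blue and lines at group means. For TTT-014, TTT-017, TTT-018, TTT-021 and TTT-030 every CNV pool lies below every Control pool, while TTT-011 and TTT-012 are highest in CNV 3 and overlap.

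The anticodons were compared by their summed levels. The 13 CTT fragments summed to 734, 662 and 648 CPM in CNV 1 to 3, against 1004, 726 and 444 CPM in Control 1 to 3 (681 ± 46.4 and 725 ± 280 CPM, mean ± SD, n = 3). The CNV pools were close to each other and lay within the spread of the Control pools, and the mean log2 difference was -0.01 in CPM, 0.13 with TMM factors, 0.26 without Control 1 and -0.33 without Control 3, so that no direction can be given. The 16 TTT fragments summed to 83.8, 100.3 and 121 CPM in the CNV pools and to 129.7, 145 and 106 CPM in the Control pools (102 ± 18.5 and 127 ± 19.8 CPM). Control 3 lay below CNV 3, so the groups overlapped here as well, with a mean log2 difference of -0.32 in CPM and -0.18 with TMM factors. Among tested fragments the median log2 fold change was -0.02 for the 11 CTT, of which 6 were negative and 5 positive, and -0.27 for the 15 TTT, of which 11 were negative and 4 positive. The order of these medians rested on CNV 1: without it they were -0.30 for CTT and -0.26 for TTT. Without each of the other libraries in turn the TTT median stayed the lower. Without Control 3 the medians were close, at -0.32 for CTT and -0.35 for TTT. The CTT median was 0.12 without Control 1. The difference between the anticodons was not tested.

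As a share of all lysine fragment counts, TTT made up 10.2%, 13.2% and 15.7% in CNV 1 to 3 and 11.4%, 16.7% and 19.2% in Control 1 to 3 (13.0 ± 2.73% and 15.8 ± 3.97%). The 95% Wilson intervals of the 3 CNV pools were 9.42% to 11.1%, 12.2% to 14.2% and 14.7% to 16.8%, and those of the 3 Control pools were 10.7% to 12.3%, 15.98% to 17.36% and 17.8% to 20.8%. No intervals of pools within a group overlapped each other, while the groups did overlap. The anticodon CTT held the rest, 84.3% to 89.8% of the counts in CNV and 80.8% to 88.6% in Control.

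**Figure D5:**
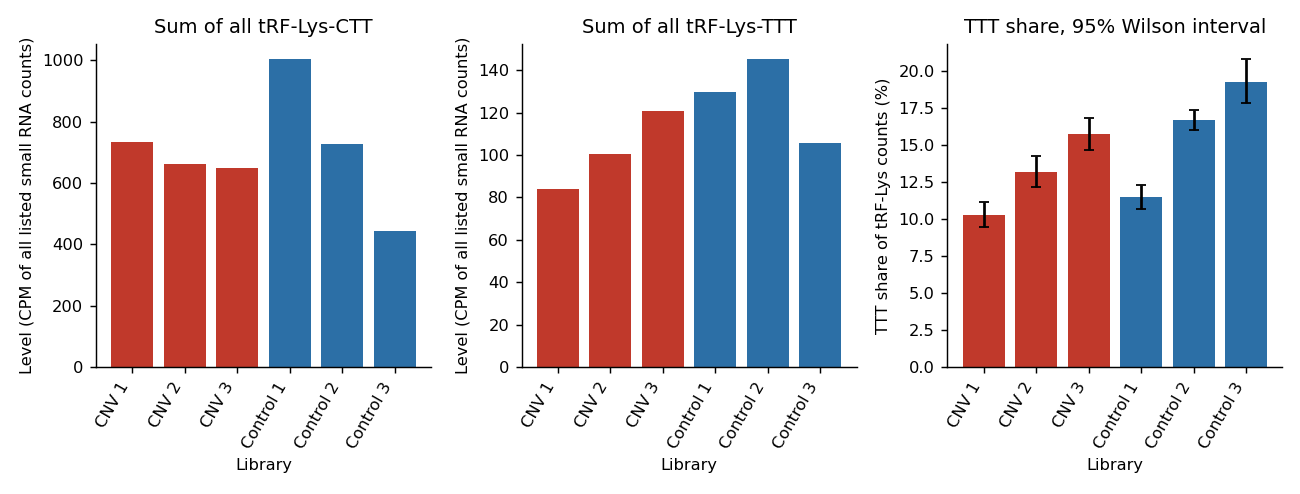
Summed level of the CTT fragments and of the TTT fragments in each library (left and middle, CPM) and the share of TTT in all lysine fragment counts (right, percent, with 95% Wilson intervals), for CNV pools in red and Control pools in blue. The CTT sum is 648 to 734 CPM in CNV, inside the Control range of 444 to 1004 CPM, and the groups overlap in all panels.

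Set against all tsRNAs of the same library, lysine fragments made up 0.929%, 0.719% and 1.19% of the tsRNA counts in CNV 1 to 3, against 1.75%, 1.82% and 1.08% in Control 1 to 3. CNV 3 lay above Control 3, so the groups overlapped. Their own summed level was 783 ± 30.7 CPM in CNV and 851 ± 292 CPM in Control, while all tsRNAs together were at 86259 ± 20692 CPM in CNV and 54536 ± 9018 CPM in Control. In CNV 1 and CNV 2 the tsRNA total was above that of every Control pool. Per tsRNA counts the mean log2 difference was -0.66 for CTT and -0.97 for TTT, the TTT share being 0.0952%, 0.0947% and 0.187% in the CNV pools and 0.200%, 0.303% and 0.207% in the Control pools, with no overlap.

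Besides the tRF, 4 lysine tiRNA were listed, which lie outside the rule. The most abundant, tiRNA-Lys-CTT-002, exceeded every lysine tRF, with 466, 693 and 448 CPM in CNV 1 to 3 and 607, 783 and 569 CPM in Control 1 to 3. CNV 2 lay within the Control range and the other CNV pools below it (log2 fold change -0.13, SE 0.22, adjusted p = 0.827 in the edgeR fit). For tiRNA-Lys-CTT-003 the levels were 102, 142 and 77.8 CPM in the CNV pools and 129.0, 130.1 and 93.3 CPM in the Control pools (log2 0.04, adjusted p = 0.950), and for tiRNA-Lys-TTT-002 they were 33.5, 31.2 and 20.7 CPM in the CNV pools and 32.5, 21.4 and 12.5 CPM in the Control pools (log2 0.55, adjusted p = 0.463). Both overlapped. The rare tiRNA-Lys-TTT-001, with 4 to 6 counts per CNV library and 6 to 15 per Control library, was not tested. Summed tiRNA counts were 0.737, 1.14 and 0.711 times the summed lysine tRF counts in the CNV pools and 0.680, 1.07 and 1.23 times in the Control pools, again with overlap.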

How the data were processed

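The authors' deposited tables give a read count per miRNA and tsRNA in each library. Per the submitters' processing notes reads were matched with Bowtie; no version, genome build or treatment of reads with several matches is stated there, and fragments of related tRNAs can share reads. The deposited CPM column was not used. Groups and replicate numbers came from the sample titles.

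Counts were analysed with edgeR 4.0.16 in R 4.3.3. Small RNAs passing filterByExpr (minimum count 10, minimum total 15) were scaled together with TMM factors and tested with the quasi-likelihood test, with Benjamini-Hochberg adjustment over all 997 and a threshold of 0.05. SE is the absolute log2 fold change over the square root of F. Printed CPM use total counts only. DESeq2 1.42.0 and limma 3.58.1 were alternatives. The fit was tested on 5 draws of simulated counts, with 200 of the 997 small RNAs changed in each. It called 66.4% of the 2-fold and 98.9% of the 4-fold changes, and 3.52% of the calls were false. A 2-fold change can thus be missed. These rates are for all small RNAs and not for the lysine fragments alone.

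The members, marker lists and tests were chosen with earlier results of these data known. The fragments described by rule were, per anticodon, the 6 most abundant tested fragments and the 4 with the smallest p, 14 in all. Values of CTT-004, CTT-023, TTT-013, TTT-014 and TTT-030 are given outside that rule, after they were seen. No 2 lysine fragments had identical counts in all libraries.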

Additional observations from a re-analysis of the deposited data

How the results depend on the processing

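The number of lysine fragments called was 0 under limma-voom, relative log expression factors, total counts as the only scaling, tsRNAs fitted alone, a minimum mean of 20 CPM and without each library in turn. Limma-voom called 3 of 997 small RNAs in all (0.301%), so its 0 is near that share and no result about the lysine fragments. Totals called over all small RNAs under the other settings with 0 are not given here. DESeq2 called 2 and the fit with no filter on low counts called 2, tRF-Lys-TTT-018 and tRF-Lys-CTT-011 in each, among 38 and 88 small RNAs called in all (3.81% and 3.77%). With the replicate number as a block 1 was called, TTT-018 (adjusted p 0.0420), among 36 (3.61%). The labels do not say what a replicate number marks, so the main fit has no block. Same-numbered pools deviated together with correlations of 0.29, 0.03 and 0.17. Of the 6 libraries 5 correlated best with their own number, while Control 2 did so with CNV 3 (0.15). Margins were small for CNV 2 (0.03 with Control 2, 0.01 with Control 1) and CNV 3 (0.17 with Control 3, 0.15 with Control 2). The deviations were taken from group means of 3 pools, so these matches are not independent of each other. Whether the pools were paired was not tested. The cause of these changes in calls was not tested. Fragments lower at an unadjusted p under 0.05 numbered 4 to 6 under every setting but the minimum mean of 20 CPM, which left 5 lysine fragments, 2 of them lower. In those settings 26 to 29 lysine fragments were tested, and 2.78% to 9.30% of the tsRNAs were lower at that p.

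Per listed tsRNA counts, the log2 difference in level was -0.70 for all lysine fragments, -0.66 for CTT and -0.97 for TTT. The mean tsRNA total in CPM was higher in CNV, but the groups overlapped, with CNV 3 (64714 CPM) below Control 1 (64784 CPM). The TTT level was negative under every scaling tried and without each library in turn. Of 187 values for the 14 fragments described by rule, 175 kept their direction and their side of the threshold, 5 passed it and 7 changed sign. Leaving out a library, the log2 fold change ran from -0.47 to 0.15 for CTT-003, from -0.41 to 0.12 for CTT-008, from -0.10 to 0.59 for CTT-010 and from -0.024 to 0.19 for TTT-020, which was also -0.0056 when scaled by totals alone. The 3 fragments left out of the test were removed by the filter rule, and all 29 were tested with no filter and with tsRNAs fitted alone.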
